A study of Canis lupus familiaris with 42 samples.

Results

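Spontaneous sarcomas of dogs were compared before treatment according to the RNA level of 3 genes of T cells in each biopsy. A score was taken for each tumour as the mean log2 level of CD3D, LCK and GZMA on its array before treatment. The groups were chosen by this score: of the 21 tumours, the 10 with the highest score formed the high-score group and the 10 with the lowest score formed the low-score group. The tumour at the median rank was left out, so 20 of the 21 arrays before treatment, and 20 of the 42 arrays in all, entered the comparison. The levels of the 3 score genes before treatment chose the groups and are given as a description, with no test.

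CD3D is a subunit of the T cell receptor complex, LCK is the kinase that starts signalling from that receptor, and GZMA is a protease that cytotoxic T cells and natural killer cells keep in granules. T cells recognise peptides held by MHC molecules. Class I molecules sit on most nucleated cells and show peptides cut by the proteasome. Class II molecules sit on fewer kinds of cell, among them macrophages, dendritic cells and B cells. Interferon gamma from T cells and natural killer cells raises both classes, the immunoproteasome and chemokines such as CXCL10, which in turn draw T cells.

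The study took 1 array from each of 21 sarcomas before and 1 after the first hyperthermia session, given beside radiotherapy, while its design text speaks of 22 tumours. Groups before treatment carried no treatment, and the arrays after treatment came from the same tumours. The labels used here name neither the sarcoma subtype, the breed, the time of the second biopsy nor the radiation given before it, and they do not say that every tumour came from a different dog, so the p-values reflect only how these tumours differ among themselves. The tissue was checked with COL1A1, a collagen of mesenchymal cells: its level before treatment ran from 12.65 to 14.34 in the high-score and from 11.88 to 14.09 in the low-score tumours. Array medians lay between 5.20 and 5.31 on the log2 scale. The poly-A control transcripts, which are added to RNA before labelling, split the arrays into a spiked batch with 3 high-score and 6 low-score tumours and an unspiked batch with 7 high-score and 4 low-score tumours. No label names these batches. They moved with the groups, and the values with the batch as a block or within a batch are given beside the calls and beside the list medians that they move by over 1.5 times.

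The score ranged from 4.45 through a median of 4.92 to 6.51 in the high-score tumours, and from 4.02 through 4.31 to 4.42 in the low-score tumours. The high-score tumours were spread widely (mean 5.18 ± 0.71, SD, n = 10), while the low-score tumours lay close together (mean 4.28 ± 0.13, SD, n = 10). The border was narrow: tumour 21, the last in the high-score group, scored 4.45, the tumour left out scored 4.44, and tumour 7, the first in the low-score group, scored 4.42. Tumours 4 and 15 stood at the top with scores of 6.51 and 6.23, above tumour 20 at 5.61.

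CD3D ran from 3.67 through a median of 5.17 to 7.26 in the high-score tumours, and from 3.56 through 3.86 to 4.84 in the low-score tumours. LCK ran from 4.52 through 5.14 to 6.39 in the high-score tumours, and from 4.23 through 4.65 to 4.97 in the low-score tumours. GZMA ran from 3.83 through 4.70 to 5.93 in the high-score tumours, and from 3.74 through 4.27 to 5.03 in the low-score tumours. Each of the 3 genes overlapped between the groups, and only their mean separated them. In these bulk biopsies, fewer T cells and less of this RNA per T cell cannot be told apart.

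**Figure D1:**
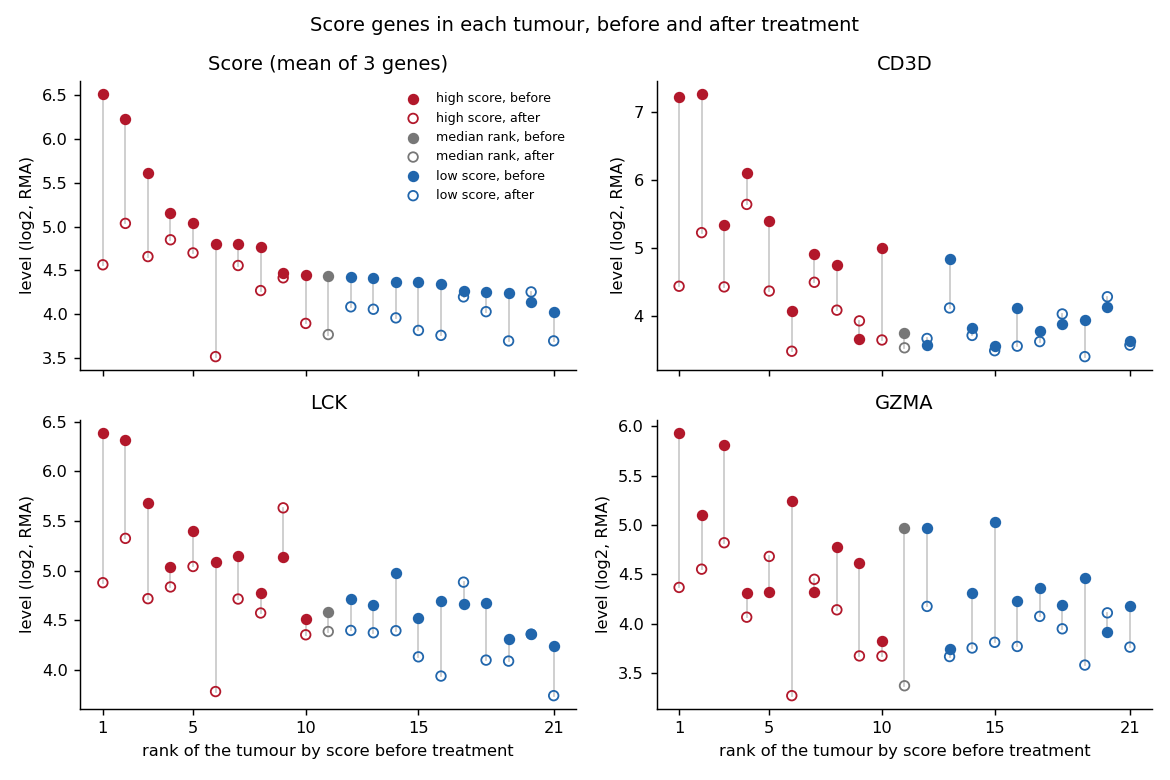
Level (log2, RMA) of the score and of CD3D, LCK and GZMA in each of 21 tumours, ordered by score rank before treatment; filled points are arrays before and open points arrays after treatment. The scores fall from 6.51 to 4.02 across the ranks before treatment, and ranks 10 to 12 lie between 4.45 and 4.42.

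Across the other genes, the high-score tumours held more RNA of leukocytes and of antigen presentation. Of 42919 probe sets tested with limma, 20 passed an adjusted p of 0.05 (0.0466%), of which 19 were higher (0.0443%) and 1 was lower (0.00233%) in the high-score tumours, and 3298 had an unadjusted p under 0.05 (7.68%). The 19 that carry a single gene symbol belonged to 16 genes. With the probe set of highest mean taken for each gene, 9 of 15112 genes passed (0.0596%), all of them higher. CD48, DLA-DRA, CTSS, PSMB8, B2M, MPEG1 and FAM78B were called only on a probe set of lower mean. Among the 20 called probe sets, the groups of 10 did not overlap for 5, namely PTPRC, RAC2, CD48, LAMP3 and a probe set with no gene name here, where 9 of all probe sets (0.021%) had such groups with the high-score tumours on top.

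The called set was small and moved with single choices. With the poly-A batch as a block, 2 probe sets were called (0.00466%), one of PTPRC and the unnamed one, and limma called 0 among spiked and 0 among unspiked arrays alone (1831 and 2208 had an unadjusted p under 0.05). All 19 higher probe sets were above 0 within each batch, and the blocked difference was a median of 0.957 times the unblocked one. As the 19 were selected for their difference on these same arrays, their sign and size here are no separate support. A score without CD3D or without LCK gave 0 calls (2442 and 3367 with an unadjusted limma p under 0.05), and a score without GZMA gave 4. These scores also changed the groups. Without CD3D, 2 tumours moved from high to low and 2 from low to high. Without LCK, 1 moved from high to low and 0 from low to high, and without GZMA 1 moved each way. Leaving out tumours 4 and 15 left 9 calls, 6 of them among the 20. Leaving out 1 tumour gave 3 calls for tumours 1, 3, 10, 16 and 19, 4 for tumour 12, 5 for tumour 18, 6 for tumours 4 and 17, and 7 for tumour 9. It gave 12 calls for tumours 5 and 13, 13 for tumour 6, 53 for tumour 11 and 128 for tumour 14, whereas the other 5 tumours gave 16 to 25.

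**Figure D2:**
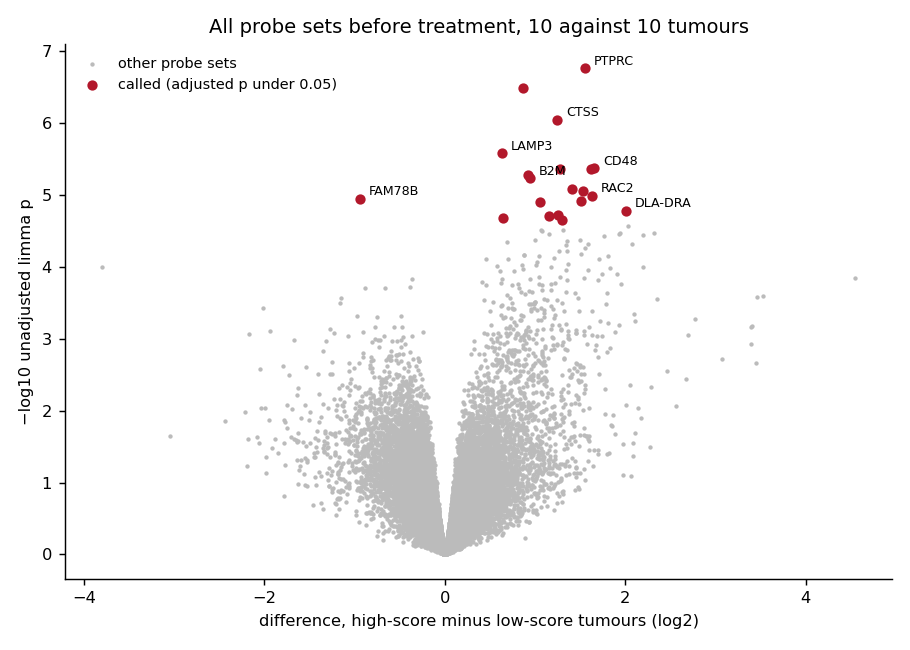
Difference between 10 high-score and 10 low-score tumours (log2, x axis) against the unadjusted limma p (−log10, y axis) for 42919 probe sets before treatment. Of the 20 called probe sets in red, 19 lie on the side of the high-score tumours and 1, for FAM78B, on the other.

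Leukocyte genes led the called set. T cells are leukocytes and the score was made from genes of T cells, so these genes are no evidence independent of it. PTPRC, the CD45 phosphatase found on all leukocytes, ran from 6.18 through 6.93 to 7.46 in the high-score tumours on its second probe set, and from 4.39 through 5.43 to 6.03 in the low-score tumours. Every high-score tumour lay above every low-score tumour. The difference was 1.55 ± 0.20 (log2, SE, n = 10 per group), or 2.93-fold, with an adjusted p of 0.00704 by limma, and 1.55 with an adjusted p of 0.0154 with the batch as a block. The PTPRC probe set of higher mean level gave 0.93 ± 0.15, with an adjusted p of 0.028 (0.104 with the block).

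RAC2, a small GTPase of blood cells, ran from 7.51 through 8.08 to 10.06 in the high-score tumours, and from 5.84 through 6.80 to 7.33 in the low-score tumours. The groups did not overlap, and the difference of 1.63 ± 0.28 (3.09-fold) had an adjusted p of 0.0359, which became 0.111 with the block. CD48, a surface protein of lymphocytes and monocytes, ran from 6.80 through 7.34 to 8.99 against 4.74 through 5.62 to 6.80 on its called probe set, with the lowest high-score tumour just above the highest low-score one. This difference was 1.66 ± 0.27 (adjusted p 0.0271, and 0.0986 with the block), whereas the CD48 probe set of higher level gave 1.49 and an adjusted p of 0.0563. Of 24 measured pan-leukocyte genes, 2 were called (PTPRC and RAC2), 23 lay above 0 and 15 had an unadjusted p under 0.05 in the higher direction, with a median difference of 0.62 (0.41 among spiked and 0.82 among unspiked arrays). Over all genes the median was -0.00, 7535 of 15112 lay above 0, and 685 (4.53%) were higher and 646 (4.27%) lower at that unadjusted threshold.

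MHC class II genes had the largest median difference of the 30 gene lists examined. DLA-DRA, the alpha chain of the canine DR molecule, ran from 9.50 through 11.03 to 11.76 in the high-score tumours on its called probe set, and from 7.29 through 8.83 to 10.89 in the low-score tumours. The groups overlapped, with 6 high-score tumours above all low-score ones, and the difference of 2.004 ± 0.36 (4.01-fold) had an adjusted p of 0.0448 (0.111 with the block). The DLA-DRA probe set of highest mean was not called, and its difference ran from 1.60 to 2.04 with 1 tumour left out. DLA-DMB, a chain of the molecule that helps load peptides onto class II, ran from 7.38 through 8.23 to 9.11 against 5.82 through 6.61 to 8.03, a difference of 1.51 ± 0.26 (adjusted p 0.0359, and 0.111 with the block). All 3 of its called probe sets were higher, by 1.25 to 1.51, and none was called with the block.

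CTSS, the cathepsin that trims the invariant chain from class II molecules, ran from 10.23 through 10.76 to 11.33 on its called probe set in the high-score tumours, and from 8.85 through 9.50 to 10.53 in the low-score tumours. Its difference of 1.25 ± 0.18 had an adjusted p of 0.0128 (0.0549 with the block) and stayed called whichever tumour was omitted. The other CTSS probe set, of higher level, gave 0.79 (adjusted p 0.177). CD74, the invariant chain itself, gave 1.93 ± 0.37 and an adjusted p of 0.0527, and DLA-DQA1 and DLA-DQB1 gave 1.91 and 2.19 with adjusted p of 0.0837 and 0.0764. Of 13 measured class II genes, 1 was called, 12 lay above 0 and 10 had an unadjusted p under 0.05, all higher. Their median difference was 1.05, with 0.92 under the block, 0.93 among spiked and 1.06 among unspiked arrays, and 0.94 without tumours 4 and 15. CIITA, the master activator of class II genes, gave 0.04 ± 0.09.

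Class I genes and the peptide-cutting machinery differed in the same direction. PSMB9, an immunoproteasome subunit, ran from 7.98 through 9.003 to 10.35 in the high-score tumours, and from 6.92 through 7.52 to 8.32 in the low-score tumours. In 9 of 10 high-score tumours the level lay above all low-score ones, and the difference was 1.53 ± 0.26 (2.88-fold), with an adjusted p of 0.0347 (0.111 with the block). PSMB8, its partner subunit, ran from 6.05 through 6.83 to 7.96 against 5.33 through 5.49 to 6.28 on the called probe set, a difference of 1.28 ± 0.21 (adjusted p 0.0271, and 0.0986 with the block). B2M, the light chain of class I molecules, ran from 12.68 through 13.08 to 13.28 against 11.55 through 11.98 to 12.77 on its called probe set. That difference was 0.94 ± 0.16 (adjusted p 0.028, and 0.0986 with the block), and the B2M probe set of higher level gave 0.72 (adjusted p 0.115). TAP1, which carries peptides to class I molecules, gave 1.35 ± 0.26 (adjusted p 0.0563). Of 19 measured genes of this list, 1 was called, 18 lay above 0 and 12 had an unadjusted p under 0.05, all higher, with a median of 0.35.

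The remaining called probe sets were of mixed roles. TRIM22, an interferon-induced antiviral protein, ran from 4.08 through 5.33 to 6.52 against 3.20 through 3.65 to 4.48, a difference of 1.62 ± 0.26 (adjusted p 0.0271, and 0.0722 with the block). LAMP3, a marker of mature dendritic cells, ran from 4.30 through 4.68 to 5.10 against 3.91 through 4.05 to 4.23, a difference of 0.63 ± 0.10 (adjusted p 0.0271, and 0.0914 with the block) with no overlap. CTSC, the protease that activates granzymes, ran from 9.49 through 10.41 to 10.86 against 8.37 through 9.29 to 9.92, a difference of 1.15 ± 0.21 (adjusted p 0.0471, and 0.159 with the block).

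MPEG1, a pore-forming protein of macrophages, gave 0.65 ± 0.12 (adjusted p 0.0471, and 0.136 with the block). The genes annotated only as LOC478984 and LOC484897 gave 1.30 ± 0.24 and 1.06 ± 0.18 (adjusted p 0.048 and 0.0359, and 0.111 and 0.112 with the block). The unnamed probe set ran from 5.01 through 5.40 to 5.90 against 4.09 through 4.57 to 4.91, a difference of 0.87 ± 0.12 (adjusted p 0.00704, and 0.0154 with the block). FAM78B was the only called probe set that was lower: it ran from 3.97 through 4.66 to 5.37 in the high-score tumours, and from 5.16 through 5.54 to 6.23 in the low-score tumours. Its difference was -0.94 ± 0.16 (adjusted p 0.0359, and 0.111 with the block). Of all 20 called probe sets, the adjusted p with the batch as a block ran from 0.0154 to 0.159.

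No gene of the T cell receptor and signalling list passed the test in the split at the median, where 9 of all 15112 genes (0.0596%) did. At so small a share, the lack of calls says little about this list. CD3G, a further chain of the receptor complex, ran from 3.55 through 4.49 to 6.55 in the high-score tumours, and from 3.63 through 3.80 to 3.93 in the low-score tumours. The high-score tumours spanned the whole range of the low-score ones, and the difference was 0.95 ± 0.28 (adjusted p 0.28). CD2, an adhesion molecule of T and natural killer cells, ran from 5.87 through 6.57 to 7.93 against 5.34 through 5.98 to 6.36, a difference of 0.77 ± 0.21 (adjusted p 0.216). CD3E gave 0.41 ± 0.19 (adjusted p 0.623) on the probe set of higher level and 1.29 ± 0.33 (adjusted p 0.174) on another. The coreceptors gave 0.34 ± 0.19 for CD4, 0.28 ± 0.12 for CD8A and 0.65 ± 0.23 for CD8B, and CD5, an inhibitor of receptor signalling, gave 0.44 ± 0.19.

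Of 32 measured T cell receptor and signalling genes, 0 were called by limma and 28 lay above 0, with a median difference of 0.26. An unadjusted limma p under 0.05 was found for 13, all higher, where 685 of all 15112 genes (4.53%) were. Without tumours 4 and 15 the median was 0.17, a fall of over 1.5 times, with 9 genes under that threshold, and it was 0.14 among spiked arrays. The mean level of this list ran from 4.81 through a median of 5.07 to 5.73 in the high-score tumours. In the low-score tumours it ran from 4.77 through 4.86 to 4.98, so the groups overlapped. Since the score was made from genes of the same kind of cell, this list is no independent evidence. Of 20 cytotoxic and natural killer genes, 0 were called and 6 had an unadjusted limma p under 0.05, with a median of 0.21 (0.12 with the block and 0.11 among spiked arrays). GZMK, a granzyme of memory-type T cells, gave 0.85 ± 0.30, GZMB gave 0.54 ± 0.35 (0.36 without tumour 20) and PRF1, perforin, gave 0.22 ± 0.11. Without tumour 15 CD4 was at 0.17. CD4 and PRF1 were at -0.07 and -0.04 within the spiked batch.

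The activation and checkpoint genes named here were close to 0 or uncertain. IFNG gave 0.02 ± 0.10, with levels from 3.03 to 3.93 in the high-score and 3.27 to 3.77 in the low-score tumours. PDCD1, the PD-1 receptor, gave -0.03 ± 0.18, CTLA4 gave 0.12 ± 0.10, FOXP3, the factor of regulatory T cells, gave -0.12 ± 0.07 and CD274, the PD-L1 ligand, gave 0.24 ± 0.22. Without tumour 15, CTLA4 was at 0.04 and CD274 at 0.03. The signs of IFNG and PDCD1 changed under several of the alternatives. No detection call was used here, so whether such low levels lie above background is not known. IDO1, an interferon-induced enzyme that breaks down tryptophan, ran from 5.08 through 6.07 to 9.97 against 4.65 through 5.17 to 5.70, a difference of 1.44 ± 0.49 (adjusted p 0.448). The difference was 0.75 without tumours 4 and 15. Of 27 regulatory and checkpoint genes, 0 were called, with a median of 0.13 (0.05 with the block, 0.04 without tumours 4 and 15). An unadjusted limma p under 0.05 was found for 8, all higher, where 685 of all 15112 genes (4.53%) were. The count was 7 with the block and 8 without tumours 4 and 15, where 505 and 470 of all genes were higher.

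The listed chemokines and interferon-stimulated genes had wide differences that did not pass the test, which 9 of all 15112 genes (0.0596%) passed. CXCL10, which draws T cells through CXCR3, ran from 4.90 through 7.38 to 11.87 in the high-score tumours, and from 3.82 through 5.03 to 5.75 in the low-score tumours. In all, 9 of 10 high-score tumours were above all low-score ones, yet the difference of 2.77 ± 0.68 (6.82-fold) had an adjusted p of 0.15, and it was 1.28 among spiked and 3.48 among unspiked arrays. CCL5, a chemokine made by T cells, ran from 7.03 through 8.03 to 10.58 against 5.68 through 6.42 to 7.65, a difference of 1.79 ± 0.41 (adjusted p 0.119). CXCR3 itself, the receptor of CXCL10, gave 0.49 ± 0.19 (adjusted p 0.547), and 0.33 without tumour 15. CCL2, which draws monocytes, gave 1.84 ± 0.38 (adjusted p 0.0764). Of 27 chemokine genes 24 lay above 0, 11 had an unadjusted limma p under 0.05 and 0 were called, with a median of 0.42 (0.15 among spiked and 0.49 among unspiked arrays).

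Of 35 listed interferon-stimulated genes, 33 lay above 0, 23 had an unadjusted limma p under 0.05, all higher, and 0 were called. The interferon-induced TRIM22, called above, was not a member of this list. Their median was 0.74, against 0.72 with the block, 0.91 among spiked and 0.73 among unspiked arrays, and 0.69 without tumours 4 and 15. ISG15, a ubiquitin-like protein, gave 1.68 ± 0.45 (adjusted p 0.2), and GBP1, a GTPase induced by interferon gamma, gave 1.49 ± 0.35 (adjusted p 0.129). IRF1, a transcription factor induced by interferon gamma, gave 0.56 ± 0.21 (adjusted p 0.525).

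Macrophage genes lay higher in the high-score tumours without passing the test, which 9 of all 15112 genes (0.0596%) passed. All 22 measured macrophage and monocyte genes lay above 0, 16 had an unadjusted limma p under 0.05 and 0 were called, with a median of 0.67 (0.76 with the block). CD163, a scavenger receptor of macrophages, ran from 7.82 through 8.80 to 10.37 against 6.44 through 7.94 to 9.68, a difference of 0.93 ± 0.32 (adjusted p 0.465). CSF1R, the receptor that keeps macrophages alive, gave 0.64 ± 0.24, CD68 gave 0.65 ± 0.27, and LYZ, lysozyme, gave 1.80 ± 0.41 (adjusted p 0.105). The mean level of the list ran from 7.46 through 7.83 to 8.70 in the high-score tumours, and from 6.68 through 7.09 to 8.16 in the low-score tumours, so the groups overlapped. The part of macrophages, and of T cells, in the class II and leukocyte differences was not tested. CSF1R gave -0.15 with a score that left out CD3D.

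Of 15 B and plasma cell genes, 12 lay above 0 and 5 had an unadjusted p under 0.05, with a median of 0.29 (0.16 with the block, 0.13 among spiked and 0.19 among unspiked arrays, 0.14 without tumours 4 and 15). MS4A1, the CD20 antigen of B cells, gave -0.01 ± 0.09, and CD79A of the B cell receptor gave 0.29 ± 0.19, and 0.14 without tumour 15. Of 13 dendritic cell genes, 1 (LAMP3) was called and 11 lay above 0, with a median of 0.21 (0.09 among spiked arrays). CD83, which marks mature dendritic cells, gave 0.99 ± 0.23 (adjusted p 0.119), and FLT3 gave 0.21 ± 0.13, and 0.13 without tumour 5.

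Markers of skin were high in 1 tumour. All 10 keratinocyte genes lay above 0, with a median of 0.52, but 0 had an unadjusted limma p under 0.05 and 0 were called. The mean level of that list was 8.54 in tumour 15 before and 7.83 after treatment, against a median of 3.97 in the high-score and 3.87 in the low-score tumours before treatment. Its median difference was 0.02 among spiked and 0.61 among unspiked arrays, and 0.08 without tumours 4 and 15. The neutrophil list also was highest in tumour 15, at 7.30. The part of keratinocyte and neutrophil RNA in the leukocyte results was not tested, and the class II and interferon medians without tumours 4 and 15 are given above.

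No gene of the stromal and tumour-cell lists was called in the split at the median, where 9 of all 15112 genes (0.0596%) were. Of 26 collagen and matrix genes, 11 lay above 0 and 2 had an unadjusted limma p under 0.05. Their median was -0.05, and 0.09 without tumours 4 and 15. It was -0.09 with the block, 0.01 among spiked and -0.11 among unspiked arrays. COL1A1 gave -0.03 ± 0.27 and changed sign under several of the alternatives. PECAM1 of endothelial cells gave 0.49 ± 0.51, and 0.19 without tumour 13 or 0.33 without tumour 16. ACTA2, smooth muscle actin, gave 1.23 ± 0.66. Of 29 proliferation genes, 25 lay above 0 but 1 had an unadjusted p under 0.05, with a median of 0.27 (0.14 among spiked and 0.44 among unspiked arrays). TOP2A gave 0.49 ± 0.49, which was 0.31 without tumour 4, 0.30 without tumour 14, 0.31 without tumour 17 and 0.78 without tumour 19. Of 16 ribosomal protein genes 1 lay above 0, with a median of -0.14 (-0.09 without tumours 4 and 15). The endothelial median was 0.21, with -0.24 among spiked and 0.48 among unspiked arrays. The smooth muscle and pericyte median was 0.24, with -0.04 among spiked and 0.51 among unspiked arrays, so both lists changed sign between the batches. Without tumours 4 and 15 these medians were 0.12 and 0.14.

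The lists of other blood cells and of inflammation moved with the same choices. The neutrophil median was 0.25, with -0.00 among spiked arrays, 0.31 among unspiked arrays and 0.05 without tumours 4 and 15. The inflammatory cytokine and NF-kB median was 0.22, with 0.05 among spiked arrays and 0.13 without tumours 4 and 15. The mast cell median was 0.18, with 0.01 among spiked arrays and 0.08 with the block. The red cell and platelet median was 0.21, with 0.09 with the block, 0.08 among spiked and 0.10 among unspiked arrays. Medians lay near 0 for hypoxia and glycolysis (0.06), p53 targets (0.06), TGF-beta targets (0.13), WNT targets (0.04), oxidative phosphorylation (0.00), heat shock chaperones (-0.09), skeletal muscle (-0.01), adipocytes (0.03) and Schwann cells and melanocytes (0.03). Within the batches and with the block, the medians of these near-0 lists ran from -0.16 to 0.18.

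**Figure D3:**
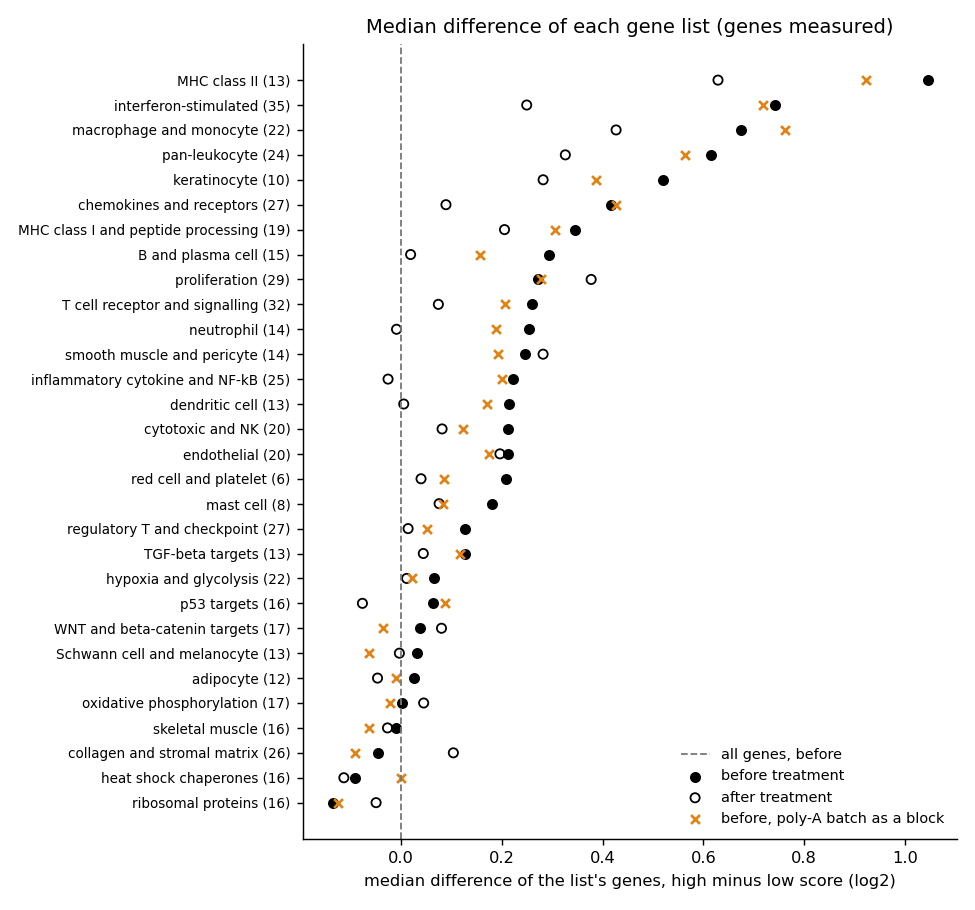
Median difference (log2, x axis) of the measured genes of 30 lists between high-score and low-score tumours, before (filled) and after (open) treatment, with crosses for the fit with the poly-A batch as a block. The class II list lies at 1.05 before and 0.63 after treatment, and the T cell receptor list at 0.26 and 0.07.

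**Figure D4:**
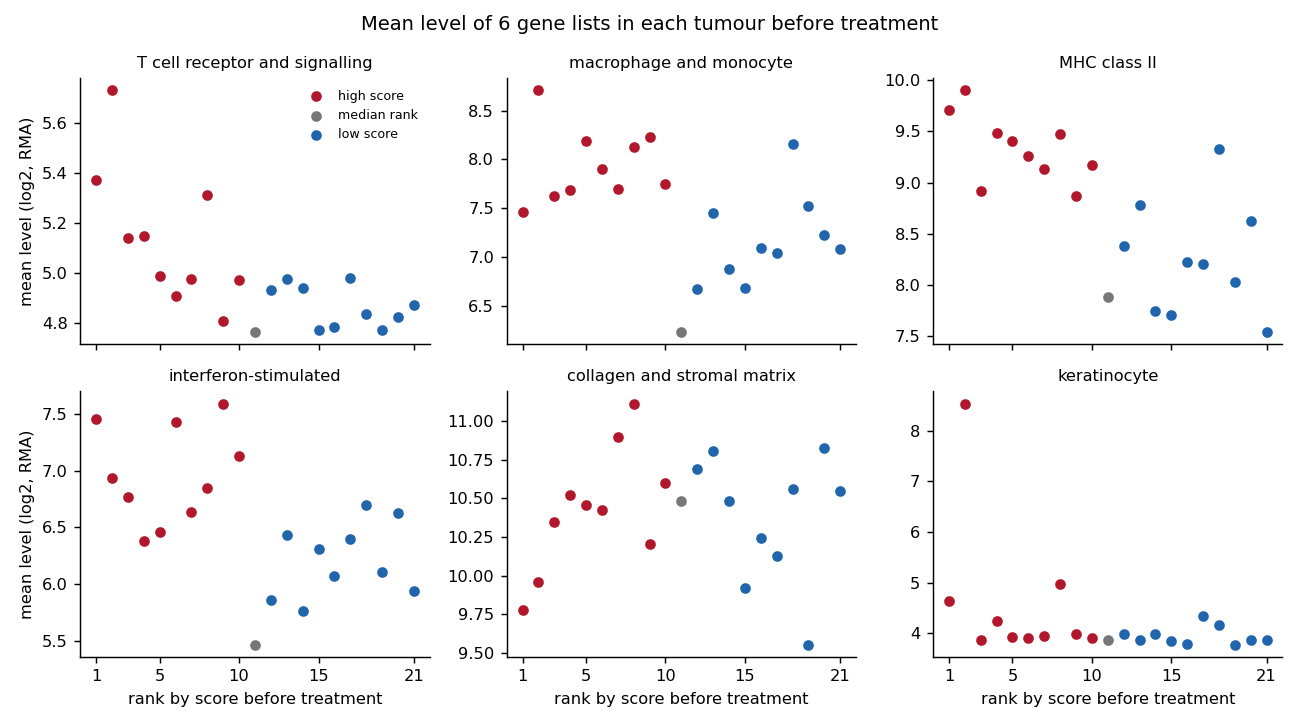
Mean level (log2, RMA) of 6 gene lists in each of 21 tumours before treatment, ordered by score rank. The class II list lies between 8.87 and 9.90 in high-score and between 7.55 and 9.33 in low-score tumours, and the keratinocyte list is at 8.54 in tumour 15.

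After treatment, arrays that had not set the ranks were compared for the same tumours, the choice of probe sets for the score having used the mean over all 42 arrays. The score ran from 3.51 through 4.56 to 5.04 in the high-score tumours, and from 3.69 through 3.99 to 4.25 in the low-score tumours, so the groups overlapped. CD3D differed by 0.63 (unadjusted limma p 0.00941), LCK by 0.55 (0.00712) and GZMA by 0.30 (0.0801), each with an adjusted p of 0.872. The mean change of the score was -0.74 ± 0.59 (SD, n = 10) in the high-score and -0.33 ± 0.22 (SD, n = 10) in the low-score tumours. This change is described without a test, as the values before treatment chose the groups.

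Of 42924 probe sets, limma called 0 after treatment (0.0%), and 2375 (5.53%) had an unadjusted p under 0.05. That number was 1795 with the poly-A batch as a block. The smallest adjusted p was 0.568. All 20 probe sets called before had the same sign after treatment, as 70.2% of all probe sets did, and 15 of them had an unadjusted limma p under 0.05. The tumours were the same and each lay in the same poly-A batch as before, so this agreement is no independent evidence. The 20 had been selected on the arrays that also set the groups, and this choice favours larger differences before treatment, so nothing is read from their being smaller afterwards. Those of the 19 higher probe sets ran from 0.10 to 1.45. DLA-DRA gave 1.45 ± 0.47, PSMB8 gave 0.78 ± 0.19 and PTPRC gave 0.76 ± 0.25 on their called probe sets, while LAMP3 gave 0.10 ± 0.10. The median over the list was 0.63 for class II genes, 0.25 for interferon-stimulated genes, 0.43 for macrophage genes, 0.21 for class I genes, 0.38 for proliferation genes and 0.07 for T cell receptor genes. At an unadjusted limma p under 0.05, 7 of 13 class II, 8 of 19 class I and 6 of 29 proliferation genes were higher, where 477 of all 15115 genes (3.16%) were. With the block these counts were 6, 6 and 2, where 325 of 15112 genes were higher. Without tumours 4 and 15 they were 4, 3 and 1, where 345 of 15112 genes were higher. The proliferation median was 0.02 among spiked and 0.54 among unspiked arrays. The interferon-stimulated median was 0.93 among spiked and -0.15 among unspiked arrays after treatment.

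When the score was used as a continuous measure over all 21 tumours, 2335 probe sets were called before treatment (5.44%), 1077 rising and 1258 falling with the score, and 16 of the 20 were among them. That count rested on the top of the score: it was 1149 without tumour 4, 1214 without tumour 15 and 3 without both, where the 3 were GPR171, CLEC2D and CD3G. Of the 32 T cell receptor genes 10 were called higher, where 442 of all genes were (2.92%), among them CD3G at 1.11 per unit of score (adjusted p 5.99e-06) and CD8B at 0.79 (adjusted p 0.00041). Calls were not limited to that list. Higher were 8 of 24 pan-leukocyte, 7 of 20 cytotoxic, 8 of 19 class I and 6 of 13 class II genes. Of 27 chemokine genes 9 were called higher and 1 lower. Of 26 collagen and matrix genes 5 were called lower, where 570 of all 15112 genes were. Of the 22 macrophage genes 0 were called with limma, and CSF1R stood at 0.08 per unit of score against 0.64 in the split. With the rank of the score in place of its value, 75 probe sets were called (0.175%), 10 of them among the 20, with CD3G (adjusted p 0.0281), CCL5 (0.00654) and CD74 (0.0231) among the others. After treatment the continuous score before treatment gave 839 calls (1.95%), which was 968 without tumour 15 and 0 without tumour 4, where 5796 had an unadjusted limma p under 0.05. The rank gave 0 calls after treatment (0.0%), with 4548 under that unadjusted limma p.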

How the data were processed

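RNA of 42 tumour biopsies was measured on Affymetrix canine arrays. Per the submitters' processing notes, the authors made the deposited log2 values with RMA and Affymetrix Expression Console, with versions not given in the sources used here. RMA subtracts background, equalises the distribution of all arrays and summarises probes, so it compresses low levels and hides a shift of all genes. Of 43035 probe sets, 111 controls were left out, and before treatment also the 5 probe sets of CD3D, LCK and GZMA. A single symbol was given for 29254 probe sets, several for 439 and none for 13231. For each gene the probe set of highest mean over the 42 arrays stood for it. Differences were tested with limma 3.58.1 (R 4.3.3, lmFit and eBayes, two-sided) and adjusted by Benjamini-Hochberg over all probe sets tested, and a call is an adjusted p under 0.05. The procedure was run on simulated data with independent normal noise, equal spread in both groups, no batch and no groups chosen by score. It recovered 19 of 50 changes of 0.5 (log2) and 41 of 50 changes of 1, with 11 false calls. The real arrays differ in these settings, so the run does not show how the procedure performs on them. The number of arrays limits the precision.

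Members and lists were chosen with earlier results of these data known. Named genes are the called genes, up to 12 in each direction, up to 2 called members of each list, and 33 measured genes of a set list. Other called probe sets, genes printed as list members and those called with the rank or the continuous score were picked after their values were seen. Lists, 557 measured of 663 genes, are described by counts and medians, with no test. The poly-A batch was inferred from 36 control probe sets with a border at 5.39. Alternatives covered the batch, the RNA 3′ to 5′ contrast, the score, the filter, weights, normalisation and leaving out tumours. Those that left out tumours 4 and 15, alone or together, the rank and the blocked continuous score were chosen after seeing the data.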

Additional observations from a re-analysis of the deposited data

Results flagged for a closer look

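Single tumours stood apart from the rest of their group of 10 for 9 of 82 combinations of gene and group examined over 41 genes, by Dixon's test at the 95% level, at which chance marks about 1 in 20 groups. Of these, 6 were tumour 15, always as the highest high-score tumour. CD4 was 7.90 there and 6.63 in the next tumour, and CD274 was 6.50 and 4.94. CXCR3 was 7.86 in tumour 15 and 6.73 in the next, CD5 was 6.90 and 5.93, CD79A of B cells was 5.71 and 4.62, and CTLA4 was 3.98 and 3.44. In the low-score group, LOC484897 was 6.97 in tumour 14 and 6.31 in the next, IRF1 was 7.82 in tumour 8 and 7.18 in the next, and TOP2A, a gene of dividing cells, was 8.89 in tumour 19 and 6.80 in the next.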

How the results depend on the processing

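Against 20 probe sets called before treatment, counts of 13 to 30 came from quantile normalisation (13), centring (15), the 3′ to 5′ contrast, array weights, 1 probe set per gene (16 each), a 1.5-fold minimum (20) and trended shrinkage (30). The count was 2 with the poly-A batch as a block, 0 in the spiked and 0 in the unspiked arrays alone, 4 for ranks 1 to 7 against 15 to 21, 0 for a score without CD3D, 0 without LCK, 4 without GZMA, 51 at or above the median level, and 9 without tumours 4 and 15. The continuous score gave 2335, with 1523 under the poly-A block, 1149 without tumour 4, 1214 without tumour 15 and 3 without both, and the rank gave 75. Leaving out 1 tumour gave 3 to 128. After treatment 0 were called under every alternative to the split; the continuous score gave 839, with 45 under the block and 968 without tumour 15. The cause of these shifts was not tested, except that the median filter tests fewer probe sets and the omissions use fewer tumours.

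Signs changed for 9 genes, none of them called. Among spiked arrays CD4 gave -0.0674, PRF1 -0.0402 and PECAM1 -0.332, and MS4A1 gave 0.0008 among unspiked arrays. IFNG gave -0.0261 for the outer ranks, -0.0223 without LCK in the score, -0.0711 with array weights and -0.0497 without tumours 4 and 15. PDCD1 gave 0.229 for the outer ranks, 0.207 without CD3D, 0.0708 without LCK and 0.0177 with array weights. MS4A1 gave 0.0273 without CD3D, 0.0598 without LCK and 0.0128 without GZMA. Without CD3D, CSF1R gave -0.151 and FLT3 -0.0048. COL1A1 gave 0.087 for the outer ranks, 0.0221 without CD3D, 0.0054 without LCK, 0.104 without GZMA, 0.0182 with quantile normalisation and 0.074 without tumours 4 and 15. PECAM1 gave -0.0877 with array weights. With 1 tumour left out, IFNG ran from -0.024 to 0.0765, PDCD1 from -0.0899 to 0.0764, MS4A1 from -0.0611 to 0.0289, COL1A1 from -0.1704 to 0.0748, CD4 from 0.168 to 0.392, CD274 from 0.0349 to 0.314, CTLA4 from 0.0368 to 0.153, CD79A from 0.141 to 0.378 and PECAM1 from 0.189 to 0.693.

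Low levels limit what these arrays show, since no detection call was used. The tests used no pairing because the groups compared are different tumours. Each tumour has an array before and after treatment, but the paired change was described for the score alone and was not tested.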
